A study of Mus musculus with 48 samples.

Results

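The 10 genes described here encode receptors, ligands and adaptors with which phagocytes read "do not eat" and "eat" marks on other cells: *Sirpa*, *Sirpb1a*, *Sirpb1b*, *Sirpb1c*, *Cd47*, *Siglec1*, *Siglece*, *Ptpn6*, *Trem2* and *Tyrobp*. They were chosen by name from the 54735 genes counted in each library. Their transcripts were measured by RNA sequencing in 24 libraries, 4 in each of 6 groups, made from cells sorted from the spleens of Balb/c mice aged 10 weeks. The 3 sorted populations were monocytes (Ly6Glo CD11bhi F4/80-), pre-red pulp macrophages (pre-RPMs, Ly6Glo CD11bhi F4/80lo) and red pulp macrophages (RPMs, Ly6Glo CD11blo/- F4/80hi), each from 4 wild-type (WT) mice and from 4 mice labelled Il1rl1-/-, which lack the receptor of the cytokine IL-33. The study asked how monocytes become RPMs and what IL-33 signalling adds to that course. Each mouse of a genotype gave all 3 populations, no library pooled mice as far as the labels tell, and monocytes and pre-RPMs were parted by the F4/80 gate alone.

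SIRPα is an inhibitory receptor of myeloid cells that binds CD47, a membrane protein of nearly all cells, red blood cells included. On binding, tyrosine motifs in its tail (ITIMs) recruit the phosphatase SHP-1, which *Ptpn6* encodes, and engulfment is held back, a check of particular weight in the red pulp of the spleen, where macrophages clear aged red blood cells. The SIRPβ1 proteins are close relatives of SIRPα with a short tail and signal through the adaptor DAP12, encoded by *Tyrobp*, as does the lipid and lipoprotein receptor TREM2, while the Siglecs bind sialic acid on glycoproteins and glycolipids.

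The SIRPβ1 genes lie side by side and are near copies of each other, which bears on every value given for them below. On GRCm38, *Sirpb1a* (ENSMUSG00000095788) spans chr3:15371653-15426520, *Sirpb1b* (ENSMUSG00000095028) chr3:15495751-15575065 and *Sirpb1c* (ENSMUSG00000074677) chr3:15795145-15848528, all on the minus strand. The promoters below, 250 bases before to 50 after the annotated start as RefSeq gives them for GRCm38.p6, are shown because they let the likeness be seen. Capitals mark the longest run that the 3 hold in common, of 26 bases. The windows are chr3:15426378-15426677, chr3:15575016-15575315 and chr3:15848438-15848737, all read on the minus strand.
Sirpb1a: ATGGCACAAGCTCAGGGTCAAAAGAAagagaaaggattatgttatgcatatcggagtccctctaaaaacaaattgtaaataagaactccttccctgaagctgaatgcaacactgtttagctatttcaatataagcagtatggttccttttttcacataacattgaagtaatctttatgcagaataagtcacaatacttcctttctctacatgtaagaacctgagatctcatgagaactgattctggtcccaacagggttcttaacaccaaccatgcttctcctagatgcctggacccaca
Sirpb1b: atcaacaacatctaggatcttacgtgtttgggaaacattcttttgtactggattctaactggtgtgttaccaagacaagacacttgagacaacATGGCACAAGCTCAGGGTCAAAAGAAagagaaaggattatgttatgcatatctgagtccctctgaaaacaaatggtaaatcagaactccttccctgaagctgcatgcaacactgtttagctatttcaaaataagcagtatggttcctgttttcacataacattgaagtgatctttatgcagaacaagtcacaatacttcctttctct
Sirpb1c: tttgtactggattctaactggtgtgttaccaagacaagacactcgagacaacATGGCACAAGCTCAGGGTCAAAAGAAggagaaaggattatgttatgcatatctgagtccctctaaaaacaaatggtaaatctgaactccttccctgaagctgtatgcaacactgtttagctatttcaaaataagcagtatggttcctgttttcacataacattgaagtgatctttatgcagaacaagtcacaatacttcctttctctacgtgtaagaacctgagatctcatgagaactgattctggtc
The shared run began at position -250 in *Sirpb1a*, -157 in *Sirpb1b* and -198 in *Sirpb1c*, counted from the annotated start as 0. With the whole windows aligned in pairs and gaps at the ends left free, *Sirpb1a* matched *Sirpb1b* at 95.7% of 207 columns and *Sirpb1c* at 95.6% of 248 columns. *Sirpb1b* matched *Sirpb1c* at 98.1% of 259 columns. The likeness ran on into the transcripts. Of all 50-base windows in their GENCODE M21 transcripts, 40.4% of those of *Sirpb1a*, 58.0% of those of *Sirpb1b* and 51.9% of those of *Sirpb1c* also occurred in another gene, mainly in one another. Read pairs from such stretches could have been left uncounted or assigned to a sister gene, so the levels of these 3 genes, and the split among them, are uncertain. The share was 5.01% for *Ptpn6*, all of it with *Gm20531*, a gene on the opposite strand, 1.33% for *Siglec1*, 0.722% for *Cd47* and 0 for *Sirpa*, *Siglece*, *Trem2* and *Tyrobp*.

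Among the other members, promoters of *Siglece* and *Trem2* held the motif GAGGAA, the core bound by PU.1 and related ETS factors of myeloid cells, and are shown for that reason, with its reverse complement in capitals. The window of *Siglece* is chr7:43660112-43660411 on the minus strand and that of *Trem2* chr17:48346151-48346450 on the plus strand.
Siglece: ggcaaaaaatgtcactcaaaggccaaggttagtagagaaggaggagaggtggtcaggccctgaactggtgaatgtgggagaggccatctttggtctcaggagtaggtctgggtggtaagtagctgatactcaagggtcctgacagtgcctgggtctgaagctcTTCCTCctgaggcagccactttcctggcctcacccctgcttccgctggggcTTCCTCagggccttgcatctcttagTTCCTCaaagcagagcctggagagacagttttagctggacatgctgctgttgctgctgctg
Trem2: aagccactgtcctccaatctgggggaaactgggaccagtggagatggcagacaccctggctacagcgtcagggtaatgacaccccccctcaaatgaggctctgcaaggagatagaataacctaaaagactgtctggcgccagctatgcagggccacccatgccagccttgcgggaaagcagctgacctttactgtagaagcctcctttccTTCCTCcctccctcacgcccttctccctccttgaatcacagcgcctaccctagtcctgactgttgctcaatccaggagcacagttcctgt
All 3 matches in *Siglece* lay on the strand opposite to the gene, at positions -87, -36 and -11, and so did the match in *Trem2*, at -40. The motif, searched on both strands, was found in 9289 of 32851 promoters of the same length (28.3%), and 225 of them (0.685%) held 3 or more matches. Promoters were matched for 7 of the 10 members, 8 windows in all since *Cd47* has a pair of starts, and 2 of the 8 held GAGGAA. None of the 8 held TTGCGCAA, a C/EBP palindrome found in 0.183% of all promoters, or TATAAA, found in 13.6%, again on both strands. These are letter matches and not measured binding.

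The libraries held between 3562367 and 6559454 counts, and *Gm42418* took 24.4 to 38.8% of them. Levels are given as CPM, counts scaled to a common library total after TMM normalisation, which corrects totals for differences in composition. On this scale 3 counts stood for 0.451 to 0.896 CPM in a library, which is taken here as its limit of detection and covers counting error only. RPM markers (*Spic*, *Vcam1*, *Hmox1*, *Slc40a1*, *Adgre1*, *Cd163*) summed to 4409 to 6491 CPM in RPMs and to 25.2 to 229 CPM in all other libraries, whereas the 6 monocyte markers were present in every group, at 586 to 1813 CPM. In RPMs that sum was mostly *Csf1r*, the CSF-1 receptor of monocytes and macrophages, at a mean of 1467 CPM in WT RPMs, while *Ccr2*, a chemokine receptor of monocytes, stood at 536 CPM in WT pre-RPMs and 7.39 CPM in WT RPMs. Monocyte libraries also held RNA of 5 NK cell markers (*Ncr1*, *Klrb1c*, *Gzma*, *Prf1*, *Nkg7*), 450 to 1698 CPM in sum against 10.9 to 133 CPM in pre-RPMs and 4.84 to 28.6 CPM in RPMs, and of 7 neutrophil markers, at 736 to 2443 CPM against 74.5 to 320 and 1.54 to 14.2 CPM. The 3 plasma cell markers (*Jchain*, *Sdc1*, *Tnfrsf17*) summed to 317 to 1648 CPM in monocytes. They came to 40.6 to 330 CPM in pre-RPMs and 9.25 to 176 CPM in RPMs. Counts of the targeted gene were not lower throughout in the libraries labelled Il1rl1-/-: *Il1rl1* stood at 3.21 ± 1.05, 4.27 ± 1.06 and 1.95 ± 0.80 CPM (SD, n = 4) in WT monocytes, pre-RPMs and RPMs, and at 14.1 ± 1.45, 12.4 ± 0.47 and 0.83 ± 0.48 CPM in the libraries labelled Il1rl1-/-. It was therefore higher in the monocytes and pre-RPMs labelled Il1rl1-/- and lower by mean in the RPMs. Every genotype direction below refers to the libraries as labelled. Counts over all exons do not show whether the deleted part of the gene was transcribed.

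**Figure D1:**
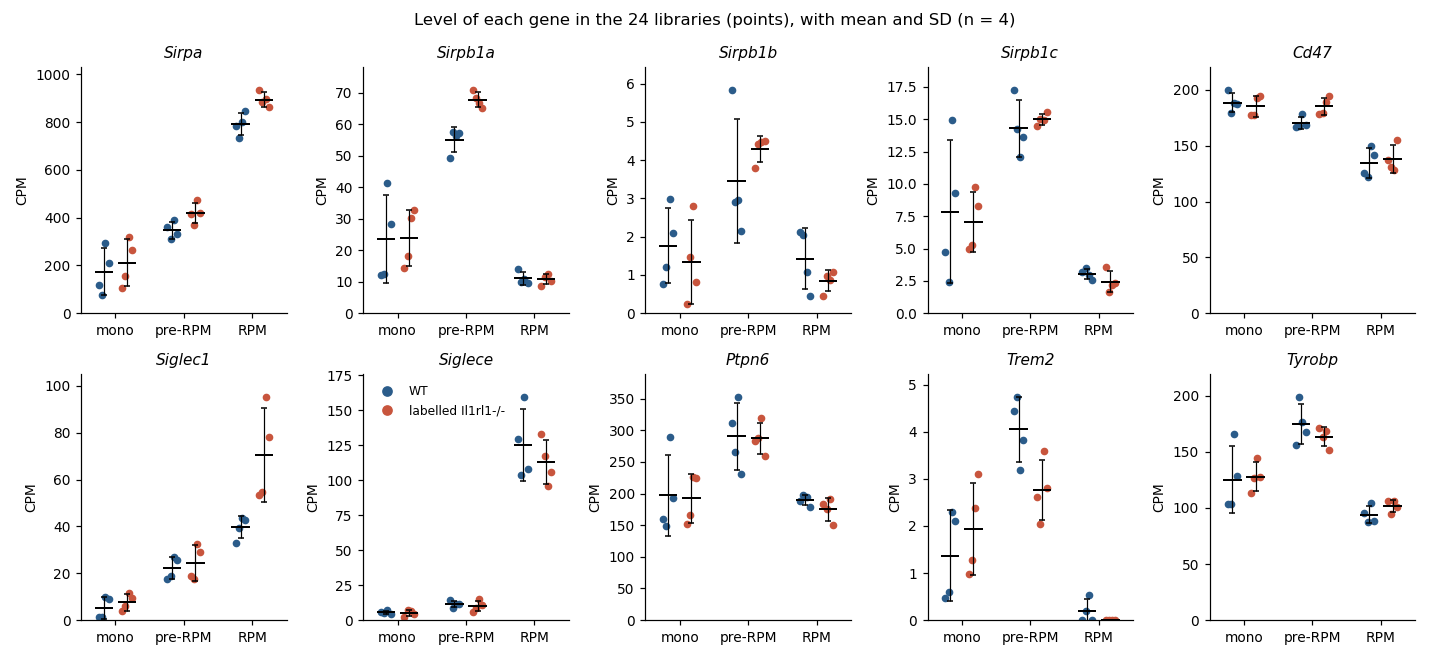
CPM (linear axis from 0) of the 10 genes in each of the 24 libraries (points), 1 panel per gene, with populations along the horizontal axis, genotype labels in colour, and the mean and SD of each group (n = 4) as bars. *Sirpa*, *Siglec1* and *Siglece* were highest in RPMs, the *Sirpb1* genes and *Trem2* in pre-RPMs, and *Cd47* kept within 122 to 200 CPM throughout.

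*Sirpa* (ENSMUSG00000037902, chr2:129592835-129632228, plus strand) was highest in RPMs and lowest in monocytes. In WT mice 1 to 4 it stood at 118, 77.0, 292 and 211 CPM in monocytes, at 362, 309, 391 and 331 CPM in pre-RPMs and at 786, 734, 800 and 847 CPM in RPMs. The 3 WT groups did not overlap, and the monocytes were by far the most spread. From WT pre-RPMs to WT RPMs it rose by 1.14 ± 0.13 (log2 fold change ± SE, edgeR quasi-likelihood test, adjusted p = 3.45e-06), or 2.20-fold. A gene was called between populations where its adjusted p was under 0.01 and its log2 fold change above 1 in size. Across WT pre-RPMs and RPMs 24.7% of the genes tested were called, and 5 of the 10 members were among them, 2 higher in RPMs and 3 lower, against 14.0 and 10.7% of all genes. In the Il1rl1-/- libraries *Sirpa* stood at 108, 156, 320 and 265 CPM in monocytes, at 414, 369, 475 and 420 CPM in pre-RPMs and at 935, 885, 896 and 862 CPM in RPMs. The order of the populations was that of the WT mice, and the rise from pre-RPMs to RPMs was 1.04 ± 0.10 (edgeR adjusted p = 3.55e-07). Without pre-RPMs of Il1rl1-/- mouse 2 that rise was 0.97, under the fold limit.

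The step from monocytes to pre-RPMs was of like size for *Sirpa* but less certain. It came to 0.99 ± 0.32 in WT mice (edgeR adjusted p = 0.0607) and 0.99 ± 0.26 in the Il1rl1-/- libraries (edgeR adjusted p = 0.0250), and neither was called. With the mouse as a block in the edgeR fit the latter came to 1.09, with an adjusted p of 0.00173, and was called. Apart from the fits that left out 1 library, it ranged from 0.51 to 1.09 (edgeR or DESeq2 adjusted p 6.36e-12 to 0.0284). In those 8 fits it ranged from 0.75 to 1.26 (edgeR adjusted p 0.00314 to 0.0916), and 1 of them called it. From monocytes to RPMs, *Sirpa* rose by 2.16 ± 0.35 in WT mice and by 2.08 ± 0.28 in the Il1rl1-/- libraries (edgeR adjusted p = 0.000428 and 5.49e-05). In bulk RNA, fewer cells that carry a transcript and less of it per cell cannot be told apart.

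In contrast to *Sirpa*, the *Sirpb1* genes were highest in pre-RPMs. *Sirpb1a* counts in WT mice 1 to 4 came to 12.3, 12.4, 41.2 and 28.4 CPM in monocytes, 49.3, 57.7, 56.3 and 57.1 CPM in pre-RPMs and 14.0, 10.0, 10.7 and 9.51 CPM in RPMs. All WT pre-RPMs lay above all other WT libraries, and the ranges of monocytes and RPMs overlapped. The fall from pre-RPMs to RPMs was -2.36 ± 0.14 (edgeR adjusted p = 4.33e-09), 5.12-fold in size. In the Il1rl1-/- libraries *Sirpb1a* stood at 14.3, 18.2, 30.3 and 32.8 CPM in monocytes, 71.0, 68.3, 66.9 and 65.3 CPM in pre-RPMs and 8.78, 11.7, 12.5 and 10.3 CPM in RPMs, and none of these ranges overlapped. There it rose by 1.5 ± 0.21 from monocytes to pre-RPMs (edgeR adjusted p = 0.000556) and fell by 2.70 on the log2 scale (SE 0.11, edgeR adjusted p = 2.17e-11) from pre-RPMs to RPMs.

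*Sirpb1c* followed the same course at a lower level. It measured 4.76, 2.41, 15 and 9.33 CPM in WT monocytes, 17.3, 14.2, 12 and 13.6 CPM in WT pre-RPMs and 3.19, 3.48, 2.95 and 2.55 CPM in WT RPMs. Pre-RPMs and RPMs did not overlap, whereas monocyte mouse 3 reached into the range of pre-RPMs and monocyte mouse 2 lay below all RPMs. The change from pre-RPMs to RPMs was -2.26 ± 0.21 in WT mice and -2.69 ± 0.21 in the Il1rl1-/- libraries (edgeR adjusted p = 4.87e-07 and 3.88e-08). *Sirpb1b* was close to the limit of detection, with 2 to 25 counts per library in the WT groups and 1 to 26 in the Il1rl1-/- groups. It fell by 2.35 on the log2 scale (SE 0.31, edgeR adjusted p = 1.23e-05) from Il1rl1-/- pre-RPMs to RPMs. In WT mice the change was -1.28 ± 0.44 (edgeR adjusted p = 0.0255). Among the edgeR fits that kept the fold limit, it was called only with the mouse as a block (-1.31, adjusted p = 0.00835). Apart from the fits that left out 1 library, its adjusted p ranged from 0.00835 to 0.0511. In those fits the edgeR adjusted p ranged from 0.0189 to 0.122. From monocytes to RPMs *Sirpb1a* and *Sirpb1c* were lower by 1.14 and 1.54 on the log2 scale in the Il1rl1-/- libraries, both called (edgeR adjusted p = 0.00248 and 0.00144), and in WT mice the differences of -1.10 and -1.36 were not called (edgeR adjusted p = 0.0344 and 0.0403). With each library left out in turn, *Sirpb1a* was called in 6 of 8 edgeR fits of the Il1rl1-/- libraries, at -0.95 without monocytes of mouse 4, and without monocytes of mouse 3 the WT differences came to -0.70 and -0.88. Whether these WT and Il1rl1-/- steps differ was tested only for the adjacent populations.

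*Cd47* (ENSMUSG00000055447, chr16:49800533-49915010, plus strand), the ligand of SIRPα, kept within 122 to 200 CPM over the 24 libraries. In WT mice 1 to 4 it stood at 200, 180, 188 and 187 CPM in monocytes, 167, 168, 178 and 168 CPM in pre-RPMs and 125, 122, 150 and 142 CPM in RPMs. Each WT population lay below the one before it without overlap. Ranges did not overlap for 20.9% of all genes at the first step and 46.6% at the second. From WT monocytes to pre-RPMs the difference was -0.15 ± 0.10 and was not called (edgeR adjusted p = 0.343). In the Il1rl1-/- libraries that step was 0.002 ± 0.09 (edgeR adjusted p = 0.992). The difference between WT pre-RPMs and RPMs was -0.38 ± 0.11 (edgeR adjusted p = 0.00955), 1.31-fold in size and short of the fold limit, and that in the Il1rl1-/- libraries was -0.48 ± 0.09 (edgeR adjusted p = 0.000450). Means in the Il1rl1-/- monocytes, pre-RPMs and RPMs were 186 ± 9.38, 185 ± 7.66 and 138 ± 12.2 CPM (SD, n = 4). RPM libraries also held RNA of red blood cells, whose levels are given with *Siglec1* below and whose part in the *Cd47* values was not tested.

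*Siglece* (ENSMUSG00000030474, chr7:43651070-43660161, minus strand), which encodes an inhibitory receptor with ITIMs for sialic acid on myeloid cells, had the largest rise of all members. It measured 5.53, 5.22, 7.14 and 4.06 CPM in WT monocytes, 14.5, 8.43, 11.6 and 11.7 CPM in WT pre-RPMs and 129, 103, 160 and 108 CPM in WT RPMs. Every RPM library stood at least at 95.8 CPM and every other library of either genotype at 14.9 CPM or below. From pre-RPMs to RPMs *Siglece* rose by 3.38 ± 0.18 in WT mice (10.4-fold, edgeR adjusted p = 2.27e-09) and by 3.45 ± 0.18 in the Il1rl1-/- libraries (10.9-fold, edgeR adjusted p = 3.11e-10). From monocytes to RPMs the rise was 4.50 ± 0.21 and 4.46 ± 0.24 (22.7-fold and 22.0-fold, edgeR adjusted p = 4.43e-08 and 2.12e-08). Its promoter is the one with 3 GAGGAA matches shown above.

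*Siglec1* (ENSMUSG00000027322, chr2:131069220-131086765, minus strand) encodes CD169 (sialoadhesin), a Siglec without an inhibitory tail motif that serves macrophages as an adhesion receptor and is best known from the marginal metallophilic macrophages of the spleen. In WT mice 1 to 4 it stood at 1.38, 1.20, 9.67 and 9.18 CPM in monocytes, 17.7, 19.0, 27.1 and 25.6 CPM in pre-RPMs and 33.0, 39.5, 43.5 and 42.9 CPM in RPMs. The populations did not overlap, and within each of them mice 3 and 4 were higher than mice 1 and 2. From WT pre-RPMs to RPMs it differed by 0.78 ± 0.15 (edgeR adjusted p = 0.000585), under the fold limit. In the Il1rl1-/- libraries it measured 3.71, 5.91, 11.7 and 9.30 CPM in monocytes, 18.8, 17.4, 32.6 and 29.0 CPM in pre-RPMs and 53.4, 54.8, 95.3 and 78.3 CPM in RPMs. There it rose by 1.65 ± 0.30 from monocytes to pre-RPMs and by 1.49 ± 0.22 from pre-RPMs to RPMs (edgeR adjusted p = 0.00359 and 2.82e-05). In WT mice the first of these steps was 2.07 ± 0.50 and was not called (edgeR adjusted p = 0.0204). Across both steps the rise was 2.88 ± 0.49 in WT mice and 3.19 ± 0.29 in the Il1rl1-/- libraries (edgeR adjusted p = 0.000604 and 2.28e-06). *Marco* and *Cd209b*, markers of marginal zone macrophages, summed to 2.11 to 13.2 CPM over all libraries. The mean of *Marco* was higher at each step, as that of *Siglec1* was, at 0.365, 0.968 and 6.02 CPM in WT monocytes, pre-RPMs and RPMs and 0, 1.43 and 7.33 CPM in the Il1rl1-/- groups, whereas *Cd209b* stood at 3.15, 4.71 and 2.49 CPM and at 3.91, 6.61 and 2.70 CPM, and their part in these values was not tested.

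*Ptpn6* (ENSMUSG00000004266, chr6:124720707-124738714, minus strand) and *Tyrobp* (ENSMUSG00000030579, chr7:30413760-30417585, plus strand), which stand downstream of the inhibitory and the activating receptors, were abundant in all populations and highest in pre-RPMs. *Ptpn6* measured 160, 149, 289 and 192 CPM in WT monocytes, 311, 266, 353 and 231 CPM in WT pre-RPMs and 189, 197, 194 and 179 CPM in WT RPMs. Monocyte mouse 3 lay among the pre-RPMs, and RPMs lay below all pre-RPMs. The difference from pre-RPMs to RPMs was -0.66 ± 0.14 in WT mice and -0.77 ± 0.10 in the Il1rl1-/- libraries (edgeR adjusted p = 0.00107 and 1.31e-05), in both short of the fold limit. *Tyrobp* measured 103, 103, 166 and 128 CPM in WT monocytes, 156, 199, 176 and 168 CPM in WT pre-RPMs and 95.5, 87.5, 104 and 88.6 CPM in WT RPMs. Again monocyte mouse 3 reached the range of pre-RPMs and no RPM library did. Its difference from pre-RPMs to RPMs was -0.94 ± 0.12 and -0.74 ± 0.09 (edgeR adjusted p = 1.15e-05 and 4.28e-06), and without pre-RPMs of WT mouse 1 the former was just past the fold limit.

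*Trem2* (ENSMUSG00000023992, chr17:48346401-48354147, plus strand) was low in all groups and at or under the limit of detection in every RPM library. It had 3 to 14 counts per library in WT monocytes, 13 to 19 in WT pre-RPMs and 0 to 2 in WT RPMs, and all 4 Il1rl1-/- RPM libraries had 0. In CPM, the WT pre-RPMs lay above every other WT library. Summed over 4 mice, WT pre-RPMs held 66 counts and WT RPMs 3, a level 23.8-fold lower at equal scaling (exact 95% counting interval 7.78 to 118), and the difference was called (edgeR adjusted p = 9.99e-06). Il1rl1-/- pre-RPMs held 50 counts against 0 in RPMs, which is at least 17.5-fold lower when 3 counts over the group are set as the floor, a level of 0.152 CPM (edgeR adjusted p = 6.60e-06). Between monocytes and RPMs the gene did not pass the filter on low counts and was not tested. Sums there were 30 against 3 counts in WT mice, 7.84-fold lower (2.44 to 40.2), and 36 against 0 in the Il1rl1-/- libraries, at least 13-fold lower.

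**Figure D2:**
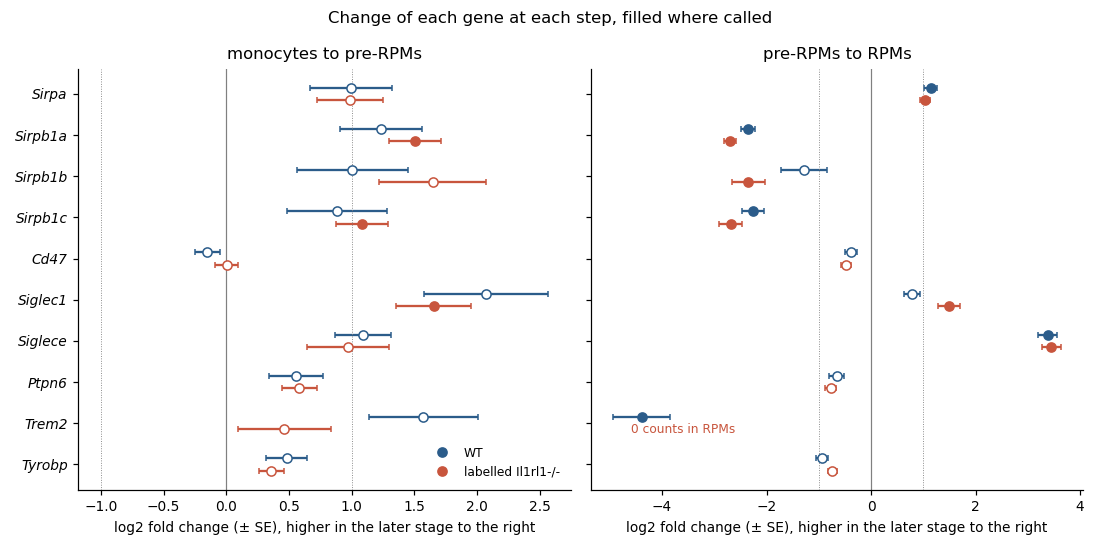
Log2 fold changes with 1 SE of the 10 genes for both steps, monocytes to pre-RPMs and pre-RPMs to RPMs, with WT and Il1rl1-/- libraries in colour; points are filled where called. *Siglece* and *Sirpa* lie to the right and the *Sirpb1* genes to the left in the second step, and *Trem2* of the Il1rl1-/- libraries is given as text because all 4 RPM libraries had 0 counts.

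Counted together, 9 of the 10 members had an unadjusted p under 0.05 from WT monocytes to pre-RPMs, where 31.9% of all genes tested did. No member was called in the main edgeR fit, without a block, and 3.57% of all genes were. DESeq2 called 2. The ranges of 6 members did not overlap (20.9% of all genes). Their median log2 fold change was 1.00 against 0.01 over all genes. In the Il1rl1-/- libraries 3 of 10 members were called at this step, *Sirpb1a*, *Sirpb1c* and *Siglec1*, all higher in pre-RPMs, where 4.85% of all genes were called and 0.974% were called higher. From Il1rl1-/- pre-RPMs to RPMs 7 of 10 were called, against 26.0% of all genes. Of these 3 were higher and 4 lower in RPMs, as were 14.5 and 11.5% of all genes. The ranges of all 10 members did not overlap in either genotype, as held for 46.6% of all genes in WT mice and 49.3% in the Il1rl1-/- libraries. From monocytes to RPMs 3 of the 8 members tested were called in WT mice (23.9% of all genes) and 5 of 8 in the Il1rl1-/- libraries (25.9%).

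Monocyte libraries decided part of the first step. Without WT monocytes of mouse 3, 4 members were called in WT mice (*Sirpa*, *Sirpb1a*, *Siglec1* and *Siglece*). In the Il1rl1-/- libraries the 3 calls fell to 1 without monocytes of mouse 2 or pre-RPMs of mouse 3 or 4, and came to 5 without monocytes of mouse 3; they were 2 without monocytes of mouse 1 or pre-RPMs of mouse 1 or 2. Of the 8 edgeR fits that each left out 1 library, 8 called *Sirpb1a*, 5 *Siglec1* and 2 *Sirpb1c*, and *Sirpb1c* was also lost in the single fit of 24 libraries (1.08, edgeR adjusted p = 0.0198). *Siglec1* was called in WT mice with the mouse as a block (2.27, edgeR adjusted p = 0.00506). Apart from the fits that left out 1 library, its edgeR or DESeq2 adjusted p ranged from 1.05e-19 to 0.0379. In those fits the edgeR adjusted p ranged from 0.00364 to 0.0593.

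Monocyte libraries also differed in NK cell marker RNA. The 5 NK markers summed to 1449, 1698, 510 and 945 CPM in WT monocytes of mice 1 to 4 and to 1372, 1046, 450 and 702.3 CPM in Il1rl1-/- monocytes. Plasma cell markers summed to 567, 429, 399 and 485 CPM in these WT libraries. In the Il1rl1-/- ones they came to 1094, 1648, 677 and 317 CPM. Neutrophil markers summed to 2443, 1243, 1963 and 736 CPM in the WT and to 994, 2034, 1736 and 1910 CPM in the Il1rl1-/- monocytes. *Sirpa* did not follow the order of the neutrophil markers in either genotype. *Sirpa* was lowest in mice 1 and 2 of both genotypes, those with the most NK marker RNA, and highest in mouse 3, that with the least. In WT monocytes *Siglece* and *Cd47* did not follow that order: *Siglece* was lowest in mouse 4 and *Cd47* highest in mouse 1. In Il1rl1-/- monocytes *Siglece* was lowest in mouse 1 and highest in mouse 2, at 2.22 and 6.97 CPM. *Cd47* stood there at 177, 178, 193 and 194 CPM in mice 1 to 4, lower in mice 1 and 2 as *Sirpa* was. Each of the 5 NK markers had counts in some library of every group. *Klrb1c* had at most 2 counts in any library of Il1rl1-/- pre-RPMs, under the limit of detection. The part of the NK markers in the monocyte values was not tested. The counts were repeated without monocyte mice 1 and 2 of both genotypes, a choice made after these values were seen. Only mice 3 and 4 were left as monocytes of each genotype. *Siglec1* stood at 1.38 and 1.20 CPM in the WT monocytes left out and at 9.67 and 9.18 CPM in those kept. The choice thus narrowed the spread, and adjusted p values of this fit are not comparable with those of all mice. In that edgeR fit 1 member was called from WT monocytes to pre-RPMs (*Siglec1*, 1.25 against 2.07 with all mice, adjusted p = 0.00278) and 2 in the Il1rl1-/- libraries, with *Sirpb1c* at 0.73 (adjusted p = 0.0198). *Sirpa*, at 0.99 in both genotypes with all mice, came to 0.47 in WT mice and 0.51 in the Il1rl1-/- libraries there. From monocytes to RPMs 5 members were called in WT mice, now also *Sirpb1a* at -1.66 and *Sirpb1c* at -1.98, and 6 in the Il1rl1-/- libraries.

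**Figure D3:**
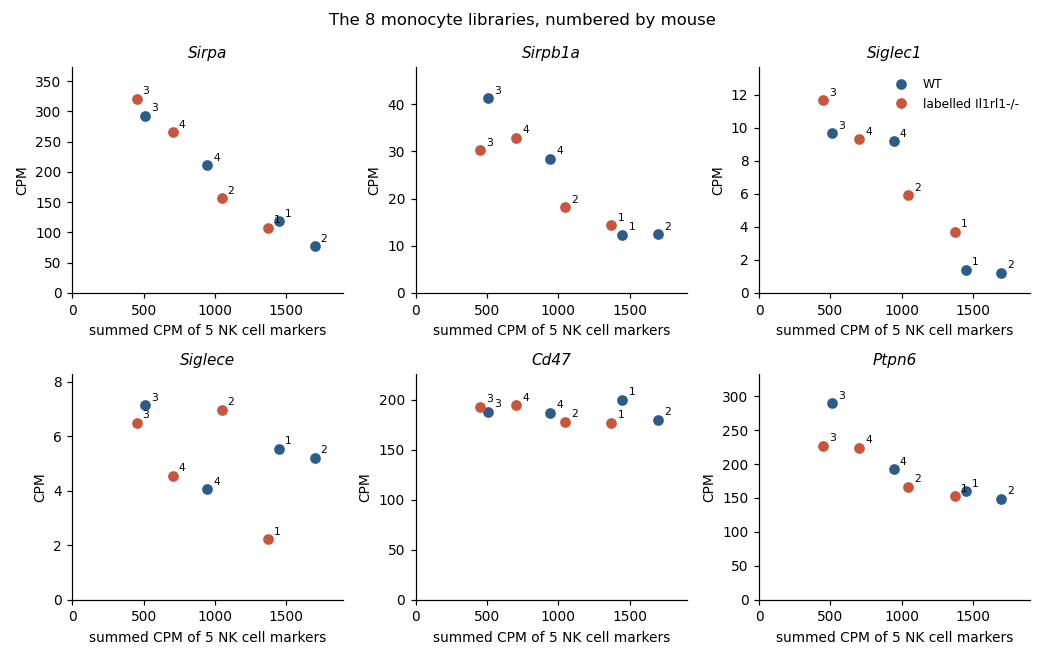
CPM of 6 member genes in the 8 monocyte libraries (vertical axis) against the summed CPM of 5 NK cell markers in the same library (horizontal axis), each point numbered by mouse and coloured by genotype label. *Sirpa* runs from 77.0 CPM in the library with the highest marker sum, 1698 CPM, to 320 CPM in that with the lowest, 450 CPM.

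Levels of different genes can be set side by side only per length, here as CPM per kilobase of annotated exon. *Tyrobp*, *Ptpn6* and *Sirpa* were the first 3 members by mean in monocytes and pre-RPMs of both genotypes, though in monocytes *Sirpa* and *Cd47* lay within their spread, at 35.6 ± 19.6 and 30.1 ± 1.35 CPM per kilobase in WT and 43.2 ± 19.8 and 29.6 ± 1.49 in Il1rl1-/- libraries (SD, n = 4). In WT pre-RPMs they stood at 262 ± 27.4, 104 ± 19.0 and 70.9 ± 7.26 CPM per kilobase (SD, n = 4). *Sirpa* came first in WT RPMs, at 161 ± 9.52 CPM per kilobase, before *Tyrobp* at 141 ± 11.6, *Ptpn6* at 67.7 ± 2.93, *Siglece* at 67.6 ± 13.8 and *Cd47* at 21.5 ± 2.11. *Ptpn6* and *Siglece*, neighbours in that order, lay within their spread. In Il1rl1-/- RPMs *Sirpa* again led, at 182 ± 6.26 against 153 ± 8.45 CPM per kilobase of *Tyrobp*, and *Trem2* was last among members in RPMs of both genotypes.

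Between genotypes the main edgeR fit, without a block, called no member in any population at an adjusted p under 0.05. It tested 9 members in monocytes, 10 at the middle stage and 8 in RPMs. Over all genes 0.0614, 0.552 and 0.233% were called. At an unadjusted p under 0.05 the members numbered 0, 2 and 1, against 3.59, 8.80 and 7.27% of all genes, and DESeq2 called 0, 0 and 1. The one nearest to a call was *Siglec1* in RPMs, at 39.7 ± 4.82 CPM in WT and 70.5 ± 20.1 CPM in Il1rl1-/- libraries (SD, n = 4). All 4 Il1rl1-/- RPM libraries lay above all 4 WT RPM libraries. The difference was 0.82 ± 0.18 (edgeR adjusted p = 0.138). It was called at 0.79 with the mouse number as a block (edgeR adjusted p = 0.00157) and at 0.83 by DESeq2 (adjusted p = 0.00823), and over the settings tried the adjusted p ranged from 3.29e-08 to 0.570. With each library left out in turn it ranged from 0.64, without Il1rl1-/- RPMs of mouse 3, to 0.94, and was called in none of the 8 edgeR fits. A block by number joins different animals here, since no mouse belongs to both genotypes.

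Within each genotype, the RPM libraries that were highest in *Siglec1* were also those highest in red blood cell RNA. The 4 erythroid markers summed to 1487, 928, 20406 and 8191 CPM in WT RPMs and to 2186, 644, 8326 and 12948 CPM in Il1rl1-/- RPMs of mice 1 to 4. Mice 3 and 4 stood above mice 1 and 2 in both genotypes, for the markers as for *Siglec1*, and the part of this RNA in the *Siglec1* values was not tested. The ranges of the marker sums overlapped between genotypes. Across genotypes the orders differed: Il1rl1-/- mouse 2 had the lowest marker sum and 54.8 CPM of *Siglec1*. WT mouse 3 had the highest sum and 43.5 CPM of *Siglec1*. The step of *Siglec1* from pre-RPMs to RPMs differed between genotypes by 0.72 ± 0.30 (interaction, edgeR adjusted p = 0.567). It was called with a block by animal (0.70, edgeR adjusted p = 0.0440; range of all settings, 0.0440 to 0.928). No other member had an unadjusted interaction p under 0.05 at either step. Of all genes 3.80% did at the first and 7.52% at the second. In the main edgeR fit, without a block, no member was called at either step, against 0 and 0.107% of all genes. DESeq2 called no member either.

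Other genotype differences were not called either. *Sirpb1a* in pre-RPMs came to 55.1 ± 3.93 CPM (SD, n = 4) for WT mice and to 67.9 ± 2.40 CPM for the Il1rl1-/- libraries, without overlap, a difference of 0.30 ± 0.09 (edgeR adjusted p = 0.240). *Sirpa* differed by 0.26 ± 0.11 there (edgeR adjusted p = 0.466), with ranges that overlapped. The ranges of *Cd47* in pre-RPMs and of *Sirpa* in RPMs did not overlap either, at 0.12 ± 0.08 and 0.17 ± 0.10 (edgeR adjusted p = 0.745 and 0.757), so that members were parted 0 times among monocytes, 2 times among pre-RPMs and 2 times among RPMs, against 2.32, 4.97 and 4.37% of all genes. *Siglece* differed by -0.22 ± 0.23 in pre-RPMs and -0.15 ± 0.14 in RPMs (edgeR adjusted p = 0.847 and 0.888). *Trem2* differed by -0.58 ± 0.28 in pre-RPMs (edgeR adjusted p = 0.586), and in monocytes *Siglec1* and *Trem2* differed by 0.53 ± 0.63 and 0.53 ± 0.56 (edgeR adjusted p = 0.997 for both).

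**Figure D4:**
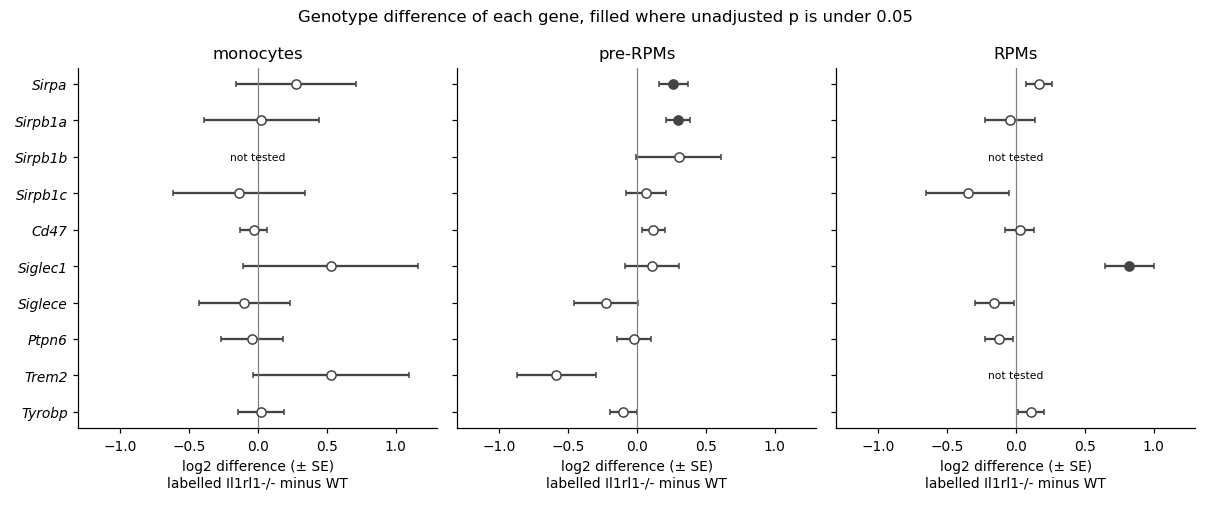
Log2 difference with 1 SE of Il1rl1-/- against WT libraries for the 10 genes in each population; filled points had an unadjusted p under 0.05. *Siglec1* in RPMs lies farthest from 0 among the filled points, at 0.82, and *Sirpb1b* in monocytes and RPMs and *Trem2* in RPMs did not pass the filter on low counts.

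Genes with a course like that of a member were sought by the root mean square difference of log2 CPM, each profile centred on its own mean, over 24 libraries. Nearest to *Sirpa* was *Lrp1*, a large endocytic receptor, at a difference of 0.13 where the profile of *Sirpa* itself has an SD of 1.02, followed by *Cd68* and *Sort1*, both at 0.21. *Siglece* was followed most closely by *Slc7a8* (0.35), *Nr1h3* (0.36), which encodes the sterol receptor LXRα, and *Cd86* (0.38), at an SD of 1.94. *Siglec1* had *Fcgr1*, a high-affinity Fc receptor, as its nearest (0.41, SD 1.52), then *Trim30c* (0.52) and *Itgb5* (0.53). For *Sirpb1a* these genes included *Apobec1* (0.24) and *Zfyve9* (0.29), for *Sirpb1b* they included *Nlrp1b* (0.45) and *Dok3* (0.50), and for *Sirpb1c* they were *Nadk* (0.28), *Prkcd* (0.29) and *Zfyve9* (0.30). *Trem2* was nearest to *Camkk2* (0.32), *Tchh* (0.37) and *Tifab* (0.38). The points share library, depth and cell sort, so these values describe the 24 libraries.

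Among the partners of these receptors, the activating and inhibitory families moved unevenly from WT pre-RPMs to WT RPMs. Of 12 other ITIM receptors of myeloid cells 5 rose and 1 fell, where 14.0% of all genes rose and 10.7% fell, with a median of 0.61 against -0.00 over all genes. *Pilra*, an inhibitory paired receptor, stood at 19.0 ± 1.77 and 161 ± 14.9 CPM (SD, n = 4), a rise of 3.03 ± 0.12 (edgeR adjusted p = 2.34e-10). *Ceacam1*, an adhesion receptor with ITIMs, stood at 75.6 ± 2.56 and 1.58 ± 0.90 CPM, and fell by 5.55 on the log2 scale (SE 0.20, edgeR adjusted p = 1.20e-10). Genes listed as TREM family and other DAP12-coupled receptors also went both ways: of 8 tested, 3 rose and 4 fell, with a median of -1.04. *Pilrb1*, the activating counterpart of *Pilra*, rose from 7.51 ± 2.23 to 49.7 ± 6.27 CPM (2.68 ± 0.18, edgeR adjusted p = 2.74e-08), and its reads may be shared with its paralogue *Pilrb2*. *Clec5a*, a DAP12-coupled lectin receptor, had 119 counts over WT pre-RPMs and 3 over WT RPMs, a level 42.8-fold lower (exact 95% counting interval 14.3 to 211, edgeR adjusted p = 1.71e-07).

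Signalling genes shared by the families are read against 24.7% of all genes called at this step and 56.1% with an unadjusted p under 0.05. Of 10 genes of SIRPα inhibitory signalling and Src family kinases, none was called from WT pre-RPMs to RPMs by edgeR or DESeq2. Of these 10 genes 5 had an unadjusted p under 0.05, and their median was -0.31. Of 8 genes of ITAM signalling, the route DAP12 uses, 3 fell and none rose, at a median of -0.48. *Card9*, an adaptor downstream of the kinase SYK, fell from 45.7 ± 8.44 to 2.70 ± 1.79 CPM (-4.10 ± 0.31, edgeR adjusted p = 8.38e-08). Of 5 other Siglec genes tested none was called by edgeR and 1 by DESeq2, and 2 had an unadjusted p under 0.05 (median 0.05).

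**Figure D5:**
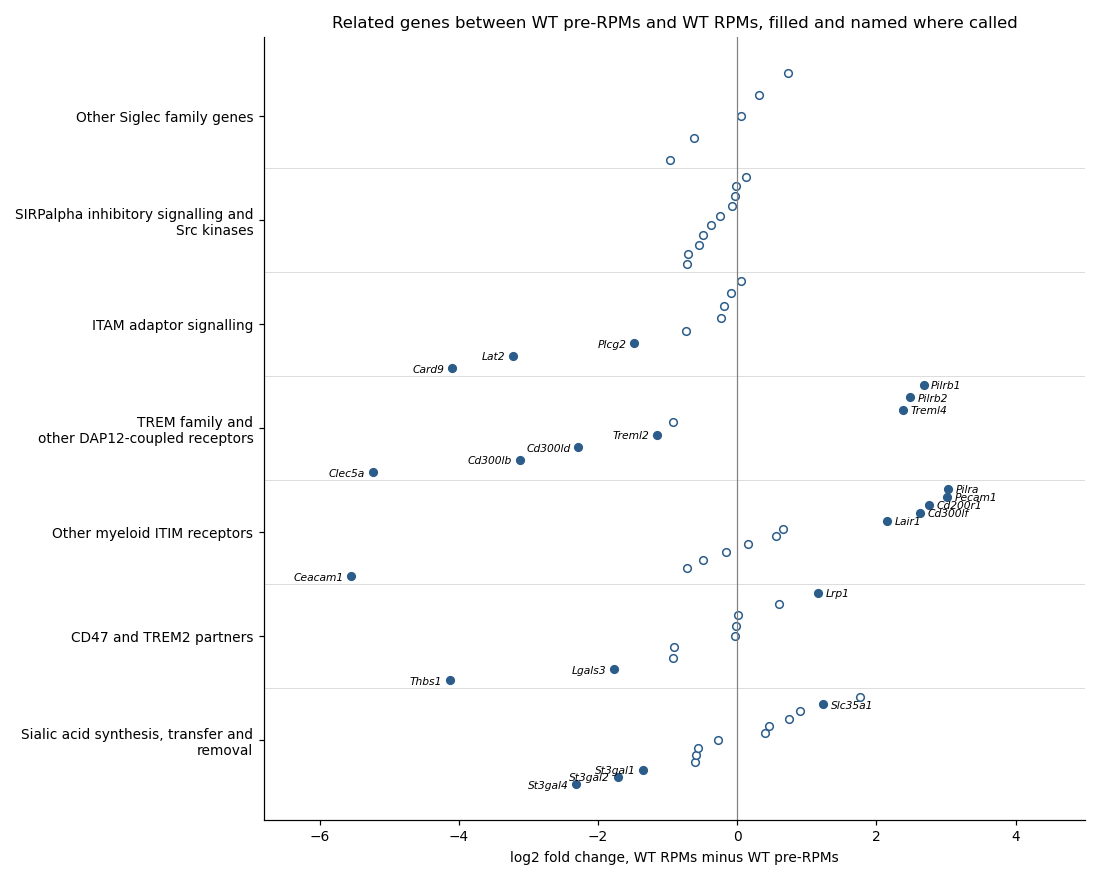
Log2 fold change from WT pre-RPMs to WT RPMs of each tested gene in the 7 lists of related genes, filled and named where called. The ITIM receptors and the TREM family and other DAP12-coupled receptors hold calls on both sides of 0. No gene of SIRPα inhibitory signalling and Src kinases and no other Siglec is filled.

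Genes on the ligand side are read against the same 24.7% of all genes called. Of 9 tested partners of CD47 and TREM2, 1 rose and 2 fell, with a median of -0.03. *Lrp1*, the receptor of the "eat" mark calreticulin, rose from 882 ± 124 to 2034 ± 131 CPM (1.16 ± 0.14, edgeR adjusted p = 9.19e-06), and *Thbs1*, which encodes thrombospondin-1, a secreted ligand of CD47, fell from 22.5 ± 5.35 to 1.26 ± 0.59 CPM (-4.13 ± 0.29, edgeR adjusted p = 2.88e-08). Of 13 tested genes that make, transfer or remove sialic acid, which the Siglecs bind, 1 rose and 3 fell (median -0.28). *Slc35a1*, the carrier of activated sialic acid into the Golgi apparatus, rose from 3.43 ± 0.18 to 8.42 ± 2.27 CPM (1.23 ± 0.25, edgeR adjusted p = 0.000800), and the sialyltransferase gene *St3gal4* fell from 56.1 ± 9.34 to 11.5 ± 3.70 CPM (-2.31 ± 0.20, edgeR adjusted p = 2.43e-07).

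At the first step 3.57% of all genes were called in WT mice, and so were 1 of 12 ITIM receptor genes, 1 of 9 partners of CD47 and TREM2 and 2 of 13 sialic acid genes. From WT monocytes to pre-RPMs 1 ITIM receptor gene rose, *Pirb*, a receptor of MHC class I molecules (1.22 ± 0.20, edgeR adjusted p = 0.00306), from 39.3 ± 11.7 to 91.5 ± 11.8 CPM. *Slamf7*, a self-binding receptor of leukocytes including NK cells, fell from 41.4 ± 16.8 to 8.52 ± 2.22 CPM (-2.28 ± 0.31, edgeR adjusted p = 0.000967), and the sialyltransferase gene *St3gal6*, with the larger fall of the 2 sialic acid genes called, went from 27.1 ± 15.1 to 3.14 ± 1.15 CPM (-3.12 ± 0.47, edgeR adjusted p = 0.00172). The part of the NK cell RNA in these changes was not tested. Between genotypes edgeR called 1 gene of the 7 lists, *Cd300ld* in pre-RPMs, an activating receptor of the CD300 family, at 20.2 ± 6.24 CPM in WT and 36.5 ± 3.65 CPM in Il1rl1-/- libraries (0.85 ± 0.17, edgeR adjusted p = 0.0316).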

How the data were processed

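RNA of sorted cells was sequenced with a stranded total RNA kit. Per the methods and file headers, the authors used cutadapt for trimming, STAR 2.5.1 for alignment to Ensembl GRCm38 release 95 and featureCounts 1.6.2, on strand setting 2, for counting over exons by gene, with no option for reads that map to several places; the deposited unit is raw counts. Chromatin accessibility libraries were not analysed here.

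Counts were tested with edgeR 4.0.16 (limma 3.58.1, R 4.3.3) for each pair of groups (8 libraries): filterByExpr, TMM, quasi-likelihood test and Benjamini-Hochberg adjustment over all genes kept. A population change was called at an adjusted p under 0.01 and a log2 fold change above 1 in size, a genotype difference or interaction at an adjusted p under 0.05. TMM factors ran from 0.797 to 1.38, 12842 genes were kept over 24 libraries, and a prior count of 2 was added for log2 CPM. The scripts were tested on simulated data.

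Samples were grouped by their labels. The mouse number marks the same animal across populations of a genotype; same-numbered libraries deviated together at r = -0.0394 to 0.306 there, at 0.118 to 0.452 between genotypes in monocytes and 0.149 to 0.182 in RPMs, and at 0.0452 to 0.155 in pre-RPMs. Labels give each library of a group its own mouse.

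The members and lists were chosen with earlier results of these data known, the lists from general knowledge. Named were all members, the gene with the largest rise and fall of each list from WT pre-RPMs to RPMs, that with the largest change in the other comparisons described, and 3 genes most like each member called, of which 2 are not reported here. Alternatives were DESeq2 1.42.0, RLE size factors, other count filters (10 counts in every library, or 1 count in any), a single fit of 24 libraries, a replicate block, no *Gm42418*, no fold limit and each library left out in turn. Fold changes were recomputed for members called or with an unadjusted p under 0.05.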

Additional observations from a re-analysis of the deposited data

Results flagged for a closer look

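Each group of 4 libraries was checked with Dixon's test at the 95% level for 1 library that stands apart from the other 3. The test flags about 5% of groups by chance, and 3 of the 59 groups checked were flagged. *Sirpb1a* in WT pre-RPMs had its lowest library at 49.3 CPM, with the next at 56.3 CPM. *Sirpb1b* in Il1rl1-/- pre-RPMs had its lowest library at 3.80 CPM, with the next at 4.43 CPM. *Cd47* in WT pre-RPMs had its highest library at 178 CPM, with the next at 168 CPM.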

How the results depend on the processing

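Of the recomputed fold changes of members, 836 kept direction and side of the threshold, 54 came past it, 14 dropped below it and none reversed; of the counts of members called, 173 stayed within 1.5 times and 22 did not. From WT monocytes to pre-RPMs the 0 calls became 2 with DESeq2, 4 with every gene that had at least 1 count, 3 in a single fit of 24 libraries, 1 without monocyte mice 1 and 2, and 4 with no fold limit at an adjusted p under 0.05. No fold limit also gave 10 from WT pre-RPMs to RPMs (5), 7 from Il1rl1-/- monocytes to pre-RPMs (3) and 6 from WT monocytes to RPMs (3); the latter was 6 with every gene, 6 in the single fit and 5 without monocyte mice 1 and 2. Between genotypes in RPMs, 0 became 1 with DESeq2 and 1 with every gene, and the interaction at the second step 1 with every gene. With each library left out in turn, calls at the first step ranged from 0 to 4 in WT mice and from 1 to 5 in the Il1rl1-/- libraries, at the second step from 5 to 6 and 6 to 7, and over both steps from 3 to 4 and 4 to 5. The cause was not tested.

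With the replicate block, 1 member was called from WT monocytes to pre-RPMs, 1 between genotypes in RPMs and, with a block by animal, 1 in the interaction at the second step; beside these and the calls of *Sirpb1b* and *Sirpa* given above, it changed no other call of a member. Over all genes it moved genotype calls from 7 to 27 in monocytes, 59 to 145 in pre-RPMs and 26 to 81 in RPMs, and interaction calls from 13 to 24, or 36 by animal. Between genotypes a number joins different animals. In pre-RPMs such libraries deviated together at r = 0.0452 to 0.155.

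Calls over all genes ran more than 1.5 times apart under other settings. With every gene, they were 139, 265 and 272 between genotypes, 78 and 224 for the interactions (0 and 13) and 1094 and 1060 at the first step (396 and 543). With 10 counts in every library they were 3, 39 and 19, 5 for the second interaction, 217 and 264 at the first step, 1467 and 1542 at the second (2776 and 2973) and 1470 and 1536 over both (2769 and 3009). DESeq2 gave 26 in monocytes, 60 in RPMs, 36 for the second interaction and 694 at the first WT step, the single fit 16 in monocytes, 17 in pre-RPMs, 3 for the second interaction and 772 at the first WT step, and leaving out monocyte mice 1 and 2 gave 239 and 321 at the first step. With no fold limit at an adjusted p under 0.05 they were 1624 and 1912 at the first step, 5663 and 6182 at the second and 5343 and 5760 over both. With each library left out they ranged from 1 to 8, 37 to 68 and 19 to 38 between genotypes and from 169 to 1041 and 336 to 813 at the first step. From WT monocytes to RPMs the median of all genes was 0.11 with DESeq2 and with every gene, against -0.01. *Sirpb1b* and *Trem2*, at 26 counts or fewer per library, are limited by depth.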
